A study of Homo sapiens with 8 samples.

Results

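The comparison described here sets dCas12a-VPR against dCasMINI-VPR when neither effector had a programmed target. It contrasts 4 of the 8 libraries in the series over the 16606 genes with enough reads to be tested, while the spread behind each test was estimated from all 8. dCasMINI is a miniature Cas protein without cutting activity, dCas12a is a larger nuclease-dead Cas protein, and each was joined to VPR, a fusion of the VP64, p65 and Rta activation domains. The host was HEK293T, an established line from human embryonic kidney, carrying a TRE3G-GFP reporter, and it was transfected with plasmids for an effector and a guide RNA. In the libraries named sgNT here, cells received dCasMINI-VPR with a non-targeting sgRNA (2 libraries), and in those named crNT they received dCas12a-VPR with a non-targeting crRNA (2 libraries). The other 2 groups received the same effectors with Tet guides (sgTet and crTet, 2 libraries each), and their libraries are used here as a second, separate measure of the effector difference. All 8 libraries share the reporter line, medium with 10% fetal bovine serum, the transfection, and sorting on mCherry and BFP fluorescence 2 days later. The cells came from 1 line, no untransfected sample is among the groups, and no label says whether replicate libraries came from separate transfections, so p-values measure only the spread between these libraries. The deposited names separate the 4 dCasMINI-VPR libraries from the 4 dCas12a-VPR libraries by a prefix whose meaning is not stated. The kind of guide RNA also goes with the effector, an sgRNA with dCasMINI-VPR and a crRNA with dCas12a-VPR, in both guide pairs. The effector, its kind of guide RNA and whatever that prefix marks cannot be told apart, and the effector difference stands for all of them.

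Several of the genes with the largest differences belong to the type I and type III interferon pathway. In this pathway, sensors of foreign RNA or DNA lead to the secretion of interferons, which act on receptors at the cell surface. The receptors signal through JAK kinases to STAT proteins and IRF9, and this complex binds the interferon-stimulated response element in the promoters of antiviral genes. The products of these genes degrade or trap viral RNA, block translation or budding, and raise the display of peptides on MHC class I. HEK293T cells are known to respond to interferon and to express little of the DNA sensing machinery.

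The sgNT libraries held 19433237 and 17474404 reads assigned to genes, and the crNT libraries 19142986 and 20061468. Levels are given as CPM, the reads of a gene per 1000000 assigned reads, scaled between libraries by TMM factors. Before that scaling, 3 reads equal 0.150 to 0.172 CPM in these libraries. Unmapped reads made up 9.62% and 9.11% of all reads in sgNT and 14.4% and 12.7% in crNT, against 8.32% to 9.55% in the 4 libraries with Tet guides. The first principal component of log2 CPM held 36.7% of the variance and placed crNT at 0.550 and 0.485, sgNT at -0.062 and -0.167, crTet at 0.053 and 0.052, and sgTet at -0.528 and -0.382. Replicates of crNT and sgNT differed by more than counting noise (chi-square per degree of freedom 3.19 and 3.94), so all libraries were kept as separate samples.

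Of the 16606 genes tested with edgeR's quasi-likelihood test, 1276 (7.68%) were called between crNT and sgNT at an adjusted p of 0.05, and 2968 when the 4 libraries of the comparison were fitted alone. In crNT 597 genes (3.6%) were higher, and 679 (4.09%) were lower. Most of these differences were small: the median fold was 1.37 among the higher genes and 1.36 among the lower ones, and 82 higher and 47 lower genes reached 2-fold. Of the 4 group means, that of crNT was the highest in 573 of the 597 higher genes and the lowest in 669 of the 679 lower ones. That of sgNT was the lowest in 259 of the higher genes and the highest in 358 of the lower ones. Why crNT mostly stood apart was not tested. The crNT and sgNT libraries did not overlap in any of the 1276 called genes, nor in 9169 (55.2%) of all tested genes, so a lack of overlap alone sets no gene apart. In bulk libraries such as these, a change in the share of cells that respond and a change in RNA per cell cannot be told apart. The count depends strongly on single libraries. It was 832 without sgNT replicate 1, 333 without sgNT replicate 2, 399 without crNT replicate 1 and 504 without crNT replicate 2, and it was 2133 and 2143 without sgTet replicate 1 or 2, the pair of replicates that differed most (chi-square per degree of freedom 13.8) and that shares the estimate of the spread. Among genes with a mean log2 CPM of at least 1, the 12 called genes with the largest rise kept their call in all 19 alternative analyses, as did 7 of the 12 with the largest fall (IRS4-AS1, HOXA7, AMH, HES1, MKI67, PLEKHM1P1 and FZD10).

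**Figure D1:**
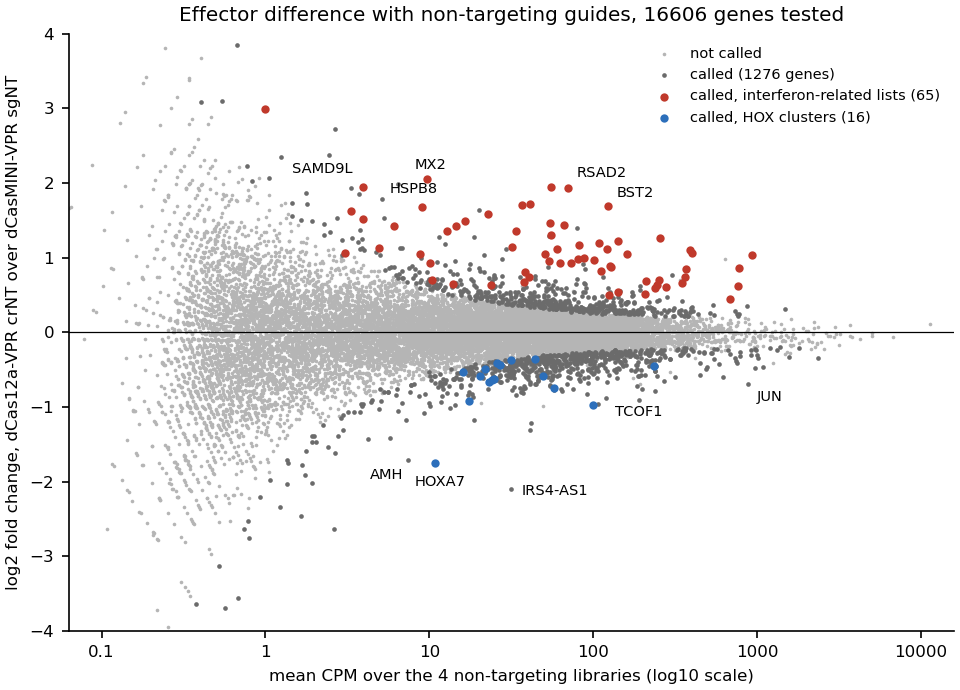
Fitted log2 fold change between crNT and sgNT (vertical axis, limited to -4 to 4) against mean CPM over the 4 libraries (horizontal log axis), with 1 point per tested gene and called genes in dark grey, red (interferon-related lists) or blue (HOX clusters). The 65 called genes of the interferon-related lists all lie above 0 and the 16 called HOX genes all lie below 0, while 11 genes fall outside the vertical range and 6 without a read in these libraries are not drawn.

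Among the 12 largest rises, 8 were on the interferon-related lists (MX2, OAS2, SAMD9L, RSAD2, IFI27, IFI44, BST2 and APOL6), and GBP1 is an interferon-induced guanylate-binding protein. BISPR is a long non-coding RNA transcribed away from BST2, TRANK1 encodes a large protein with repeat motifs, and HSPB8 encodes a small heat shock protein. To show what the response element looks like where it occurs, promoter stretches of 7 rising genes, chosen because they hold it, are given with the core letters of the interferon-stimulated response element in capitals (GAAA, any 2 bases, GAAA, or TTTC, any 2 bases, TTTC where it reads on the opposite strand). They come from RefSeq promoter windows of GRCh38.p14, each 300 bases long from 250 before to 50 after a gene's first listed start, and each is printed 5′ to 3′ on the gene's strand with up to 30 bases to either side.
BST2 (chr19:17405715-17405784, minus strand): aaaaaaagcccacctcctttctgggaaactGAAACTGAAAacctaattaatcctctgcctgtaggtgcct
IFI27 (chr14:94110611-94110680, plus strand): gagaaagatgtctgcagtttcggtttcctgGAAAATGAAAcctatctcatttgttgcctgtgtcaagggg
GBP1 (chr1:89065296-89065365, minus strand): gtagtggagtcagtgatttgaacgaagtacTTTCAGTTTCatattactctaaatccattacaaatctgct
IFIT3 (chr10:89327845-89327914, plus strand): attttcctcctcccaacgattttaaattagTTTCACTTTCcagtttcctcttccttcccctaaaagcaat
IFIH1 (chr2:162318685-162318735, minus strand): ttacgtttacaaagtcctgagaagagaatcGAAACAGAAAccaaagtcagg
TAP1 (chr6:32853793-32853862, minus strand): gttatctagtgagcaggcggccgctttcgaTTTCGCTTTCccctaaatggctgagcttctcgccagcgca
B2M (chr15:44711349-44711418, plus strand): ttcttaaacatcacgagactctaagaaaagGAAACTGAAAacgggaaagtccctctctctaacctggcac

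Among the 12 largest rises the windows of BST2, IFI27, GBP1 and IFI44 held the element and those of BISPR, SAMD9L, TRANK1, RSAD2 and HSPB8 did not. MX2, OAS2 and APOL6 had no window and were not searched. The element was searched on both strands, and overlapping matches count once per window. It was present in 996 of 27305 promoter windows in the table (3.65%) and in 317 of the 11877 windows matched by symbol to a tested gene (2.67%). Of the genes higher in crNT, 45 of 477 with a window held it (9.43%), and among those higher by at least 2-fold the number was 22 of 55 (40%). Of the genes lower in crNT it was present in 12 of 538 (2.23%), and among those lower by at least 2-fold in 2 of 22 (9.09%). By list, it was found in 25 of 38 windows of interferon-stimulated antiviral genes (65.8%) and in 9 of 15 of MHC class I presentation genes (60%). It was in 3 of 11 windows of nucleic acid sensing and signalling genes (27.3%). None of the 18 windows of HOX cluster, 24 of ribosome biogenesis and 26 of hypoxia and glycolysis genes held it. Beside 2.67% of windows of tested genes, a count of 0 in lists this small does not set them apart. Among genes higher by at least 2-fold that are on no interferon-related list, 5 of 30 windows held it (16.7%). The windows of BISPR, SAMD9L, TRANK1, RSAD2 and HSPB8 held no match, which says only that these letters are not in those 300 bases. A match describes the letters of a window and is not evidence that a factor bound there.

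Nucleic acid sensors stood partly higher in crNT. Of 16 tested genes on the list of nucleic acid sensing and signalling, 8 rose and none fell, with a median log2 fold change of 0.55 against -0.000126 over all genes tested. IFIH1, which encodes the cytosolic double-stranded RNA sensor MDA5, was at 30.4 and 35.4 CPM in sgNT and at 71.5 and 64.8 CPM in crNT, a log2 fold change of 1.05 ± 0.11 (SE; edgeR adjusted p = 1.82e-08). DHX58, encoding the related helicase LGP2, stood at 8.19 and 6.18 CPM in sgNT and 21.04 and 15.9 CPM in crNT (1.36 ± 0.19; edgeR adjusted p = 4.76e-06). Both genes were higher in both crNT libraries, as called genes are throughout. ADAR, which edits adenosine in double-stranded RNA, rose from 583 and 581 to 810.3 and 773 CPM (0.44 ± 0.07, edgeR adjusted p = 5.96e-05), and SAMHD1, which depletes nucleotides needed for viral replication, rose by 0.63 ± 0.07 on the log2 scale (edgeR adjusted p = 2e-07). The other members that rose were IRF7 (0.67), EIF2AK2, the kinase PKR (0.59), ZC3HAV1 (0.51) and TLR3 (1.13). The adaptor and kinase genes that link sensing to transcription did not pass the test, with log2 fold changes of -0.23 for MAVS, -0.05 for TRAF3, -0.07 for TBK1 and -0.01 for IRF3. RIGI, encoding the RNA sensor RIG-I, also missed the threshold at 1.08 and 2.83 CPM in sgNT and 1.02 and 1.18 CPM in crNT. CGAS, the cytosolic DNA sensor, had 9 reads over the sgNT libraries and 14 over the crNT libraries and was too low to be tested.

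Interferon genes themselves were expressed at a low level in every library. IFNB1, encoding interferon beta, was at 3.38 and 3.68 CPM in sgNT and 5.89 and 6.54 CPM in crNT. The libraries did not overlap, as in 55.2% of all tested genes, and the difference of 0.82 ± 0.27 missed the threshold (edgeR adjusted p = 0.0543). Of the type III interferons, IFNL2 rose from 0.205 and 0.227 to 1.89 and 1.62 CPM (8 against 70 reads; 2.99 ± 0.66, edgeR adjusted p = 0.00325). IFNL1 (1.20 ± 0.44, edgeR adjusted p = 0.0911) and IFNL3 (1.22 ± 0.54, edgeR adjusted p = 0.182) did not pass. IFNL2 and IFNL3 are near-identical copies, and reads that fit both are not counted for either, so their split is uncertain; the call for IFNL2 was also lost with reverse-strand counts (adjusted p = 0.117). IFNB1, IFNL1 and IFNL3 were named after their values had been seen. Among receptors, IFNAR1 (0.01), IFNGR1 (0.22), IFNGR2 (0.02) and IFNLR1 (0.27) did not pass the test, and IFNAR2 had 1 read in sgNT and none in crNT. Reads that fall on overlapping genes are set apart as ambiguous, and whether this lowered the count of IFNAR2 was not tested. Its count therefore does not show that IFNAR2 was not expressed.

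The signalling step of the pathway was called in part. STAT2, which carries the receptor signal to the nucleus, was at 52.2 and 48.8 CPM in sgNT and 102 and 90.6 CPM in crNT (0.93 ± 0.10; edgeR adjusted p = 8.45e-08). The kinase genes JAK1 (-0.14), JAK2 (0.12) and TYK2 (-0.01) and the feedback inhibitors SOCS1 (0.01) and SOCS3 (-0.06) did not pass, although SOCS3 rose with the Tet guides (1.40, edgeR adjusted p = 0.00397). On the whole list of ligands, receptors and JAK-STAT genes, 4 of 19 tested members rose, IFNL2, STAT2 and IRF2 among them, and none fell, with a median of 0.22. IRF2 lost its call without sgNT replicate 2, crNT replicate 1 or crNT replicate 2 (adjusted p from 0.105 to 0.278), and the list's count was 7 without sgTet replicate 1.

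Interferon-stimulated antiviral genes had the highest share of called members of the 45 lists. Of 46 tested members 43 rose, none fell, and the median log2 fold change was 1.11. The count stayed between 40 and 44 when any library was left out, and it was 43 when trends with gene length and GC content were taken out. The summed level of the 50 listed genes was 3914 and 3798 CPM in sgNT and 7731 and 7611 CPM in crNT. IFI6 (0.98, edgeR adjusted p = 0.141), MX1 (1.37, edgeR adjusted p = 0.151) and IFI16 (-0.07, edgeR adjusted p = 0.971) were the tested members that did not pass. IFI6 was at 442 and 409 CPM in sgNT and 850.4 and 830.3 CPM in crNT, while its sgTet libraries, which share the estimate of the spread, lay apart at 195 and 337 CPM.

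Genes that act on viral RNA were among the most changed. OAS2, which makes the messenger that activates RNase L, was at 23.4 and 22.2 CPM in sgNT and 87.5 and 88.2 CPM in crNT (1.95 ± 0.12, 3.85-fold; edgeR adjusted p = 3.73e-13). Its family members OAS1 (1.47), OAS3 (1.06) and OASL (1.44) rose as well. RSAD2, encoding viperin, which makes a chain-terminating nucleotide, was at 31.1 and 27.0 CPM in sgNT and 117 and 106 CPM in crNT (1.94 ± 0.11; edgeR adjusted p = 6.82e-14). The annotation places RSAD2 at chr2:6865806-6898239 (hg38, plus strand), where it overlaps CMPK2, another interferon-stimulated gene (1.35). IFIT3, part of a complex that binds viral RNA ends, was at 156 and 146 CPM in sgNT and 371 and 353 CPM in crNT (1.26 ± 0.07; edgeR adjusted p = 6.82e-14). IFIT2 (1.11), IFIT1 (0.85) and IFIT5 (0.54) rose as well. IFIT1 was at 561 and 550.4 CPM in sgNT and 976 and 1034 CPM in crNT.

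Genes whose products block entry, replication or budding rose too. BST2, encoding tetherin, which holds budding virions at the cell surface, lies at chr19:17402939-17405648 (hg38, minus strand). It was at 61.5 and 55.1 CPM in sgNT and at 194 and 184 CPM in crNT (1.69 ± 0.09, 3.24-fold; edgeR adjusted p = 2.49e-14). BISPR, the neighbouring non-coding RNA, was at 2.66 and 2.49 CPM in sgNT and 12.1 and 8.36 CPM in crNT (1.98 ± 0.25; edgeR adjusted p = 8.73e-07), and its span overlaps MVB12A, so reads that fall on both are set apart as ambiguous. MX2, a dynamin-like GTPase that blocks nuclear import of viral genomes, was at 4.40 and 3.06 CPM in sgNT and 14.6 and 16.5 CPM in crNT, which is the largest rise among the genes named by size (2.05 ± 0.23, 4.15-fold; edgeR adjusted p = 1.04e-07). IFITM3 (0.98), IFITM1 (0.96) and IFITM2 (0.63), membrane proteins that hinder viral fusion, rose too. IFI27 was at 18.5 and 19.6 CPM in sgNT and 61.9 and 63.9 CPM in crNT (1.72 ± 0.12; edgeR adjusted p = 9.95e-13), and IFI44 at 17.5 and 16.8 CPM and 57.5 and 54.9 CPM (1.71 ± 0.12; edgeR adjusted p = 2.74e-12). The absence of overlap between groups was part of the rule that chose MX2, BISPR, BST2, IFI27 and IFI44. ISG15, the ubiquitin-like modifier, rose by 0.85 on the log2 scale, its ligase HERC5 by 0.88 and its protease USP18 by 1.06.

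**Figure D2:**
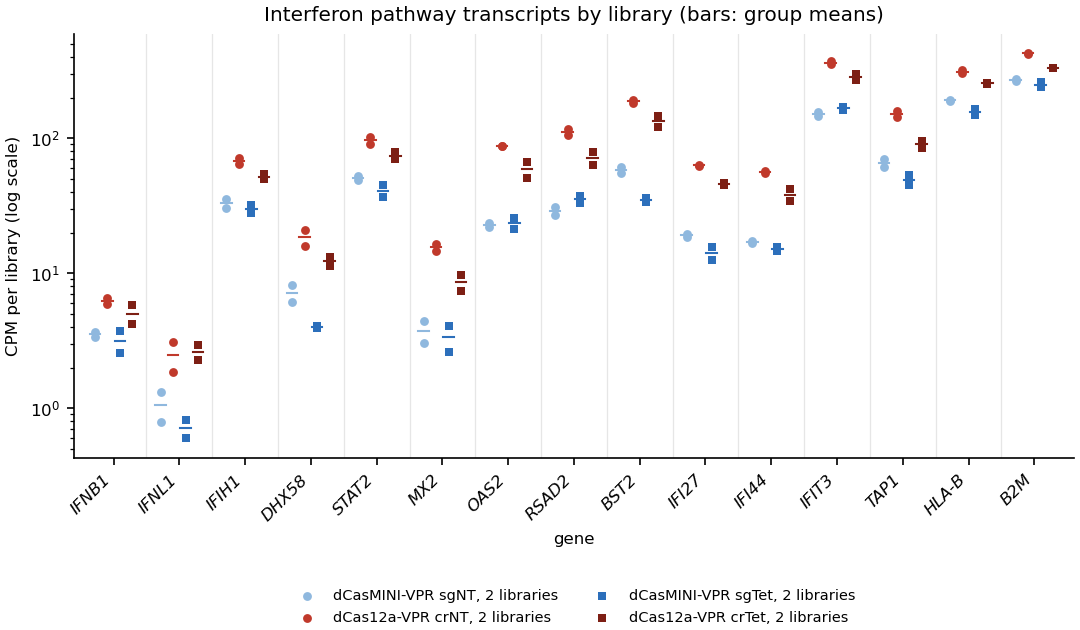
CPM of 15 interferon pathway genes in each of the 8 libraries (log axis; points are libraries, short bars are means of 2 libraries). Both dCas12a-VPR crNT libraries (red circles) lie above both dCasMINI-VPR sgNT libraries (light blue circles) for each gene drawn, as in 55.2% of all tested genes, and the same order holds between crTet and sgTet (squares).

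MHC class I presentation genes rose in part. Of 19 tested members 10 rose and none fell, with a median of 0.62. TAP1, a subunit of the transporter that carries peptides into the endoplasmic reticulum, was at 70.3 and 61.3 CPM in sgNT and 158 and 144 CPM in crNT (1.20 ± 0.09; edgeR adjusted p = 5.42e-11). Its annotated span overlaps PSMB9, an immunoproteasome subunit that rose by 1.42 on the log2 scale. B2M, the light chain of every class I molecule, was at 266 and 273 CPM in sgNT and 428 and 422 CPM in crNT (0.66 ± 0.07; edgeR adjusted p = 2.64e-08). Of the heavy chains, HLA-E (0.88 ± 0.09), HLA-B (0.70 ± 0.07) and HLA-C (0.62) rose, and the split between these similar genes is uncertain. NLRC5, the transcriptional activator of class I genes, rose by 1.43, and the peptide-trimming enzymes ERAP2 (0.93) and ERAP1 (0.65) rose too. The chaperone genes CALR (0.13) and PDIA3 (0.10) did not pass the test.

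The same effector difference could be read in the 4 libraries with Tet guides, which share no library with the comparison above. There, 711 genes (4.28%) were called between crTet and sgTet, 432 higher (2.6%) and 279 lower (1.68%) with dCas12a-VPR. The split between higher and lower depended on the scaling: 60.8% of the calls were higher as fitted, 71.4% without TMM factors and 36.8% with length and GC trends removed, and the count was 2150 without sgTet replicate 2, 379 without sgTet replicate 1, and 370 and 331 without crTet replicates 1 and 2. In all, 197 genes were called in the same direction with both guide pairs, which is 15.4% of the calls with non-targeting guides and 27.7% of those with Tet guides. Of the 597 genes higher in crNT, 163 (27.3%) were also higher in crTet, and of the 679 lower ones 34 (5.01%) were also lower in crTet. Of the 46 interferon-stimulated genes 39 rose with the Tet guides as well, with a median of 0.96, and 12 of 19 MHC class I genes and 8 of 16 sensing genes rose. In these libraries unmapped reads were at 9.17% and 8.32% in sgTet and 9.55% and 9.37% in crTet, against 9.62% and 9.11% in sgNT and 14.4% and 12.7% in crNT, and the part of unmapped reads in the result was not tested. BST2 was at 33.5 and 36.3 CPM in sgTet and 147 and 122 CPM in crTet (1.95 ± 0.10, edgeR adjusted p = 5.23e-16), and LGALS3BP, a secreted glycoprotein, at 188 and 196 and 493 and 463 CPM (1.32 ± 0.07, edgeR adjusted p = 1.54e-15).

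Whether the effector difference depended on the guide was tested directly as the difference between the 2 contrasts, and 224 genes (1.35%) were called. Of these, 152 were also called between crNT and sgNT and 72 were not. As fitted, 37.5% of the 224 differences were positive, against 52.4% with length and GC trends removed. Dropping a library changed the count to 28 (sgNT replicate 2), 30 (crNT replicate 1), 71 (crNT replicate 2), 111 (crTet replicate 1) or 1835 (sgTet replicate 2). Of the interferon-stimulated genes 4 of 46 were called in this test. RSAD2 rose more with the non-targeting guides (by 0.93 in log2, edgeR adjusted p = 0.0013), as did IFIT3 (by 0.49, edgeR adjusted p = 0.0127). For BST2 the difference between contrasts did not pass (edgeR adjusted p = 0.344).

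**Figure D3:**
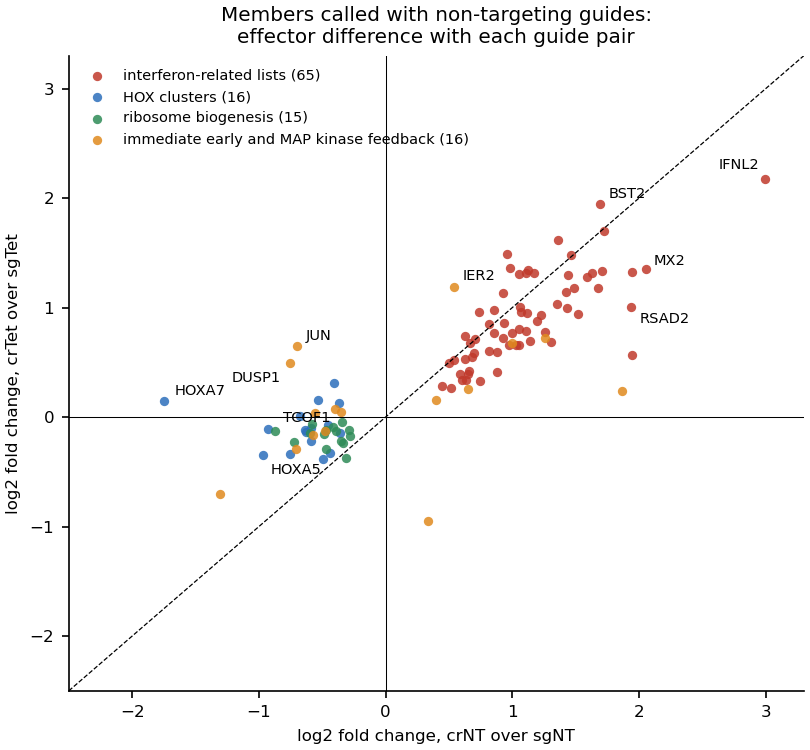
Effector difference with the Tet guides (crTet over sgTet, vertical axis, log2) against that with the non-targeting guides (crNT over sgNT, horizontal axis, log2) for list members called with the non-targeting guides; the dashed line marks equal values. Called members of the interferon-related lists (red) are above 0 on both axes, while JUN and DUSP1 (orange) are below 0 with the non-targeting guides and above 0 with the Tet guides.

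Outside the interferon pathway, genes of hypoxia and glycolysis stood higher in crNT. These are targets of HIF transcription factors and enzymes that break down glucose. Of 30 tested members 14 rose and none fell (median 0.23), and with the Tet guides 8 rose and none fell (median 0.20). The count was 9 without sgNT replicate 2 and 9 without crNT replicate 2. SLC2A3, a glucose transporter, was at 15.3 and 12.98 CPM in sgNT and 29.6 and 28.5 CPM in crNT (1.04 ± 0.14; edgeR adjusted p = 3.4e-06). P4HA1, a collagen prolyl hydroxylase, was at 68.3 and 67.1 CPM in sgNT and 111 and 103 CPM in crNT (0.66 ± 0.09; edgeR adjusted p = 2.01e-06). Both genes were also called with the Tet guides (0.51 and 0.31). ENO2, a neuronal form of enolase, rose by 0.68 ± 0.10 and BNIP3, a mitophagy receptor, by 0.54 ± 0.08, and the remaining calls included SLC2A1 (0.49), PDK1 (0.65), PGK1 (0.36), LDHA (0.31) and VEGFA (0.47).

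Stress-response genes rose in smaller numbers. For scale here and for the smaller lists below, 3.6% of all genes tested were higher in crNT and 4.09% were lower. With the Tet guides, 2.6% were higher in crTet and 1.68% were lower. Of 27 tested genes of the ATF4 response to amino acid shortage, 9 rose and none fell (median 0.23), and of 29 p53 target genes 9 rose and none fell (median 0.15). Leaving out sgNT replicate 2 lowered these counts to 4 and 4, leaving out crNT replicate 1 to 5 and 4, leaving out sgNT replicate 1 to 6 and 6, and leaving out crNT replicate 2 to 6 and 5; without sgTet replicate 1 the ATF4 count was 15, as it was without sgTet replicate 2. CDKN1A, encoding the cyclin-dependent kinase inhibitor p21, was at 231 and 219 CPM in sgNT and 394 and 369.7 CPM in crNT (0.76 ± 0.07; edgeR adjusted p = 3.52e-09). MDM2, the ligase that degrades p53, was at 121 and 131 CPM in sgNT and 168 and 172 CPM in crNT (0.43 ± 0.08; edgeR adjusted p = 0.000486). GDF15, a secreted stress cytokine, rose by 0.71 ± 0.11, PCK2, a mitochondrial gluconeogenic enzyme, by 0.69 ± 0.10, and SESN2, which both lists hold, by 0.44 ± 0.07. Of these, CDKN1A (0.60), GDF15 (0.41) and PCK2 (0.46) also rose with the Tet guides, whereas SESN2 (0.10) and MDM2 (0.15) were not called there. HEK293T cells carry a viral large T antigen, which binds p53. XBP1, a transcription factor of the unfolded protein response, rose by 0.47 ± 0.07 (edgeR adjusted p = 2.85e-05), while 4 of 23 genes of that list rose and 2 fell as fitted, 1 or 2 rose and none fell without any 1 of the 4 non-targeting libraries (2 rose without crNT replicate 2), and 7 rose without sgTet replicate 1 or 2.

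In smaller lists, 5 of 27 lysosome and autophagy genes rose (1 without any 1 of the 4 non-targeting libraries, 7 without sgTet replicate 1 or 2), and of 16 TGF-beta and BMP target genes 2 rose (INHBE and CCN2) and 5 fell (SMAD6, SMAD7, SKI, ID1 and ID3; 2 without sgNT replicate 2 or crNT replicate 1). Of 20 aminoacyl-tRNA synthetase genes 5 rose and 2 fell, but 1 and 0 did without sgNT replicate 1, none without sgNT replicate 2, crNT replicate 1 or crNT replicate 2, and 8 and 3 without sgTet replicate 1 or 2. Of 18 heat shock response genes 3 fell (HSPE1, HSPH1 and HSPD1; 1 without sgNT replicate 1 or crNT replicate 2, none without sgNT replicate 2 or crNT replicate 1, 5 without sgTet replicate 1 or 2), against 9 falls and 2 rises with the Tet guides. Of 21 NF-kB target genes 1 rose, beside 3.6% of all genes tested, the chemokine gene CCL5 (0.88 ± 0.25), for which the adjusted p was 0.272 with sgNT replicate 1 left out and 0.408 with crNT replicate 1 left out.

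INHBE and HSPB8 were other genes that rose from low levels. INHBE, encoding a subunit of activin E, was at 0.563 and 1.02 CPM in sgNT and 3.94 and 4.28 CPM in crNT (2.38 ± 0.48; edgeR adjusted p = 0.00116). HSPB8 was at 2.76 and 1.81 CPM in sgNT and 8.29 and 7.58 CPM in crNT (1.78 ± 0.28; edgeR adjusted p = 5.1e-05). With the Tet guides neither passed (1.11 and 0.60), and the difference between guide pairs did not pass either (edgeR adjusted p = 0.421 and 0.138). CCN2, a matricellular protein gene responsive to YAP and to TGF-beta, rose from 6.04 and 5.84 to 11.6 and 12.2 CPM (edgeR adjusted p = 0.000832). KRT8, an epithelial keratin, rose from 59.7 and 60.1 to 92.0 and 105 CPM (0.72 ± 0.09; edgeR adjusted p = 8.41e-07), and its span overlaps that of its partner KRT18, which did not pass (0.10). With reverse-strand counts, which do not separate the strands in these libraries, the rise of KRT8 was 0.46.

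**Figure D4:**
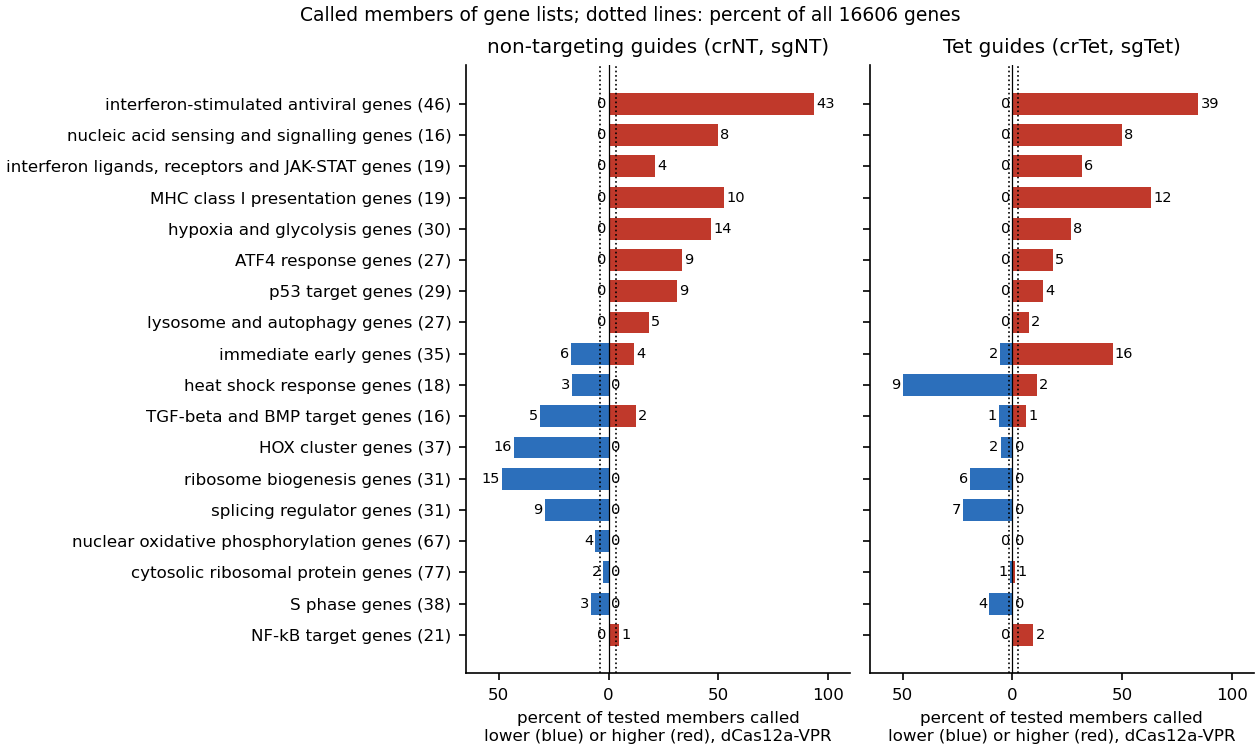
Percent of tested members called lower (blue, to the left) or higher (red, to the right) with dCas12a-VPR for 18 gene lists, with non-targeting guides on the left and Tet guides on the right; numbers are members called, tested members stand in parentheses, and dotted lines mark the percent of all tested genes called in that direction (4.09 and 3.6 on the left, 1.68 and 2.6 on the right). The interferon-stimulated list reaches 43 and 39 of 46, while HOX cluster genes reach 16 lower with non-targeting guides and 2 with Tet guides.

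The genes lower in crNT had a median GC content of 57.3%, against 44.9% for the higher genes and 48.7% for all tested genes with a value. With trends on length and GC removed, 1679 genes were called between crNT and sgNT, 759 higher and 920 lower. The part of base composition was not tested beyond this fit, whose counts stand beside those of several gene groups below.

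HOX cluster genes, which encode the homeodomain factors that set position along the body axis, fell in crNT. Of 37 tested members 16 fell and none rose, with a median of -0.46, and 17 fell with length and GC trends removed. With the Tet guides 2 fell and none rose (median -0.10). The count was 7 without sgNT replicate 2 and 7 without crNT replicate 1, with list medians between -0.46 and -0.41 over all left-out libraries. HOXA5 was at 130.5 and 132 CPM in sgNT and 64.5 and 69.4 CPM in crNT (-0.97 ± 0.09, 1.96-fold lower; edgeR adjusted p = 6.43e-10), and at 123 and 107 CPM in sgTet and 92.6 and 88.5 CPM in crTet. HOXA9 was at 70.6 and 74.0 CPM in sgNT and 42.3 and 43.6 CPM in crNT (-0.75 ± 0.10; edgeR adjusted p = 9.68e-07). Both genes were also lower in crTet than in sgTet (-0.35 and -0.34). HOXA7, at chr7:27153716-27157936 (hg38, minus strand), showed a different order: 17.2 and 16.3 CPM in sgNT, 5.43 and 4.57 in crNT, 4.55 and 7.69 in sgTet and 6.82 and 6.76 in crTet, so that the sgNT libraries stood above the other 6. Its log2 fold change of -1.75 ± 0.21 between crNT and sgNT (edgeR adjusted p = 3.72e-07) was 0.15 with the Tet guides, and the difference between these passed (edgeR adjusted p = 0.000555). HOXA7 and HOXA5 overlap the antisense RNA HOXA-AS3 (-1.53 ± 0.35, edgeR adjusted p = 0.00411), and their reads cannot be told apart where they overlap. Forward-strand and reverse-strand counts, which had similar totals in each library, do not separate them either. The log2 fold change of HOXA-AS3 was -0.72 and -0.77 with forward-strand and reverse-strand counts, and its adjusted p was 0.126 without sgNT replicate 2 and 0.0798 without crNT replicate 1. Called members also came from the other clusters, among them HOXB9 (-0.45 ± 0.07), HOXC9 (-0.67) and HOXD10 (-0.59).

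The largest fall named was that of IRS4-AS1, an antisense RNA to IRS4, an insulin receptor substrate gene typical of this line. IRS4-AS1 lies at chrX:108736011-108738903 (hg38, plus strand) and was at 50.3 and 52.6 CPM in sgNT and 12.1 and 11.9 CPM in crNT (-2.10 ± 0.14, 4.29-fold lower; edgeR adjusted p = 8.26e-13). It stood at 18.9 and 13.5 CPM in sgTet and 13.1 and 13.9 CPM in crTet, so again the sgNT libraries were the ones apart from the other 6, and the effector difference changed with the guide (by -1.84 in log2, edgeR adjusted p = 7e-07). Reads on the part it shares with IRS4 cannot be told apart. Forward-strand and reverse-strand counts had similar totals (11375463 and 11075148 reads in sgNT replicate 1), so they do not separate the 2 genes either. With these counts the fall of IRS4-AS1 was smaller, at -0.71 and -0.72 (edgeR adjusted p = 4.45e-06 and 4.5e-07). IRS4 itself was at 997 and 1030 CPM in sgNT and 811 and 833 CPM in crNT (-0.30 ± 0.07; edgeR adjusted p = 0.00589), but with sgNT replicate 2, crNT replicate 1 or crNT replicate 2 left out its adjusted p ran from 0.0577 to 0.165. For AMH, encoding anti-Müllerian hormone, crNT was the group apart, at 2.92 and 3.98 CPM against 10.1 and 12.6 in sgNT, 9.14 and 12.2 in sgTet and 11.1 and 10.1 in crTet (-1.71 ± 0.22 between crNT and sgNT; edgeR adjusted p = 1.05e-06). FZD10, a Wnt receptor, was at 23.6 and 28.1 CPM in sgNT and 10.2 and 12.7 CPM in crNT (-1.17 ± 0.15; edgeR adjusted p = 1.05e-06), with the Tet libraries in between at 16.1 to 18.2 CPM. MKI67, the proliferation marker Ki-67, was at 48.1 and 68.3 CPM in sgNT and 21.4 and 28.7 CPM in crNT (-1.21 ± 0.19; edgeR adjusted p = 0.00354). Of 36 tested genes of the G2 and M phase list only 3 fell and 2 rose, beside 4.09% lower and 3.6% higher over all genes tested. Without any 1 of the 4 non-targeting libraries no gene of that list rose and 1 or 2 fell, and without sgTet replicate 1 or 2 there were 4 rises and 3 falls.

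Ribosome biogenesis genes, which make and process ribosomal RNA in the nucleolus, fell in crNT. Of 31 tested members 15 fell and none rose (median -0.29), 20 fell with length and GC trends removed, and with the Tet guides 6 fell and none rose (median -0.19). The count was 10 without sgNT replicate 1, 6 without sgNT replicate 2, 5 without crNT replicate 1 and 10 without crNT replicate 2. TCOF1, encoding the nucleolar protein treacle, was at 144 and 167 CPM in sgNT and 81.4 and 88.0 CPM in crNT (-0.87 ± 0.08; edgeR adjusted p = 2.91e-09). NCL, encoding nucleolin, was at 1078 and 1199 CPM in sgNT and 809.5 and 818 CPM in crNT (-0.48 ± 0.07; edgeR adjusted p = 7.49e-06). TCOF1 was within 141 to 161 CPM in the 4 Tet libraries, so crNT was the group apart, and its effector difference changed with the guide (by -0.75, edgeR adjusted p = 0.000421). MYBBP1A (-0.72 ± 0.08) and NOP14 (-0.60 ± 0.10) also fell. Of 31 splicing regulators 9 fell and none rose (median -0.15), among them HNRNPU (-0.47 ± 0.07), HNRNPM (-0.46 ± 0.07) and LUC7L3 (-0.53 ± 0.08). With length and GC trends removed 13 of them fell. The splicing count was 6, 3, 3 and 5 without sgNT replicate 1, sgNT replicate 2, crNT replicate 1 and crNT replicate 2, and 7 fell with the Tet guides.

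Other transcripts of common cell functions fell by less than 2-fold. For scale, 4.09% of all genes tested were lower and 3.6% higher in crNT. FASN, the fatty acid synthase, was at 701 and 797 CPM in sgNT and 498 and 488 CPM in crNT (-0.60 ± 0.07; edgeR adjusted p = 3.25e-07), while the rest of the sterol and SREBP list held 1 rise (STARD4) and no further fall among 26 tested genes, and the adjusted p of STARD4 became 0.233 with sgNT replicate 2 dropped and 0.131 with crNT replicate 1 dropped. UHRF1, which maintains DNA methylation in S phase, was at 219.9 and 229 CPM in sgNT and 145 and 154 CPM in crNT (-0.59 ± 0.07; edgeR adjusted p = 7.86e-07), and CCNE1, cyclin E1, fell by 0.64 on the log2 scale (edgeR adjusted p = 0.000244). MYH9, non-muscle myosin, was at 309 and 356 CPM in sgNT and 208 and 214 CPM in crNT (-0.65 ± 0.08; edgeR adjusted p = 2.45e-07). In each of these genes the crNT libraries were the lowest of the series. With length and GC trends removed, 8 of 38 S phase genes, 7 of 67 nuclear oxidative phosphorylation genes and 6 of 77 cytosolic ribosomal protein genes fell. As first fitted, 3, 4 and 2 of these genes fell, beside 4.09% over all genes. Without sgTet replicate 1 these counts were 5, 9 and 7, and without sgNT replicate 2 or crNT replicate 1 they were 2, 0 and 0. The 13 mitochondrially encoded mRNAs had a median of -0.22, and none passed the test as fitted, while 8 fell without sgTet replicate 1 or 2.

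Immediate early genes, which respond to growth factors and stress within minutes, moved both ways. Of 35 tested members 4 rose and 6 fell in crNT (median 0.03), whereas with the Tet guides 16 rose and 2 fell (median 0.57), and for 8 the difference between guide pairs was called. Leaving out sgNT replicate 2 or crNT replicate 1 gave 2 rises with 4 or 3 falls. JUN, an AP-1 subunit, was at 1027 and 1164 CPM in sgNT and 616 and 736 CPM in crNT (-0.70 ± 0.08; edgeR adjusted p = 3.09e-07), but at 946 and 988 CPM in sgTet and 1586 and 1452 CPM in crTet (0.65 ± 0.08; edgeR adjusted p = 1.29e-06). DUSP1, a phosphatase that switches off MAP kinases and a member of the MAP kinase feedback list, was at 239.7 and 261 CPM in sgNT and 134 and 163 CPM in crNT (-0.76 ± 0.08), and at 270.4 and 261 CPM in sgTet and 359 and 389 CPM in crTet (0.49 ± 0.08). The direction of the effector difference therefore reversed between guide pairs for both genes (edgeR adjusted p of the difference 4.12e-09 and 1.24e-08). IER2, a nuclear early response gene, rose in both, from 62.8 and 61.0 to 88.0 and 91.8 CPM (0.54 ± 0.09) and from 50.9 and 52.9 to 118 and 118 CPM (1.19 ± 0.09). HES1, a repressor downstream of Notch, fell in both, from 55.7 and 62.4 to 20.2 and 27.4 CPM (-1.31 ± 0.12; edgeR adjusted p = 1.38e-09) and by 0.71 on the log2 scale with the Tet guides. ID3 (-0.71 ± 0.11), an inhibitor of basic helix-loop-helix factors that responds to BMP, fell with the non-targeting guides. Over all genes tested, 3.6% were higher and 4.09% lower in crNT. Of the 19 MAP kinase feedback genes 3 rose and 3 fell, which became 1 and 1 without sgNT replicate 1, 0 and 2 without sgNT replicate 2 or crNT replicate 1, and 2 and 1 without crNT replicate 2.

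**Figure D5:**
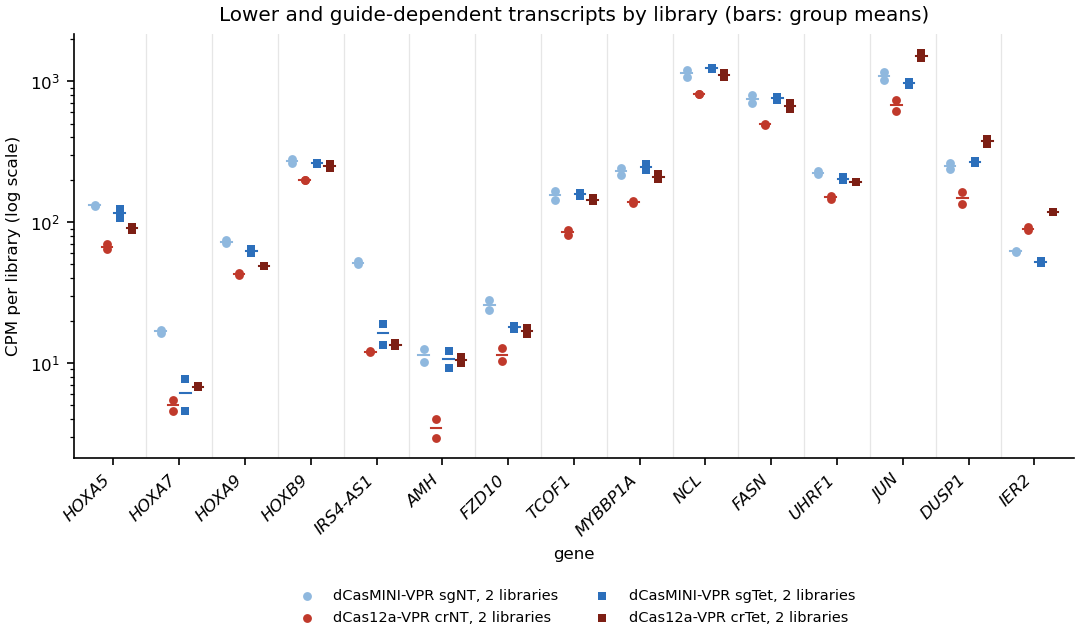
CPM of 15 genes that were lower in crNT or changed with the guide, in each of the 8 libraries (log axis; points are libraries, short bars are means of 2 libraries). For HOXA7 and IRS4-AS1 the sgNT libraries (light blue circles) lie above the other 6, whereas for AMH, TCOF1, FASN, UHRF1, JUN and DUSP1 the crNT libraries (red circles) lie below the other 6.

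EGFP, RELA, GAPDH and ACTB, named whatever their values, did not pass the test. EGFP, the reporter transcript, was at 3.22 and 4.42 CPM in sgNT and 2.76 and 2.66 CPM in crNT (-0.49 ± 0.19; edgeR adjusted p = 0.133), against 707 to 1092 CPM in the libraries with Tet guides. RELA, the endogenous gene for p65, was at 113 and 119 CPM in sgNT and 109 and 118 CPM in crNT (-0.04 ± 0.08; edgeR adjusted p = 0.849), and whether reads from the p65 part of VPR were counted there was not tested. GAPDH was at 0.05 ± 0.06 in log2 (edgeR adjusted p = 0.722) and ACTB at -0.17 ± 0.06 (edgeR adjusted p = 0.0969).

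Marker lists were used to check the cells, beside 3.6% of all genes tested higher and 4.09% lower in crNT. Of 15 tested markers of this embryonic kidney line KRT8 rose and 3 fell (NEFM, HOXA10 and IRS4; 1, 0 and 1 fell without sgNT replicate 2, crNT replicate 1 and crNT replicate 2), and the whole list of 18 summed to 1693 and 1739 CPM in sgNT and 1456 and 1527 CPM in crNT. Of 6 tested haematopoietic markers none was called, the 15 listed genes summed to 6.76 and 6.91 CPM in sgNT and 8.34 and 5.56 CPM in crNT, and PTPRC, HBA2, HBB and MPO had no read in these 4 libraries. No neuronal, fibroblast, endothelial, or muscle and heart marker was called between crNT and sgNT, and of 7 tested epithelial markers CDH1 rose (0.71 ± 0.17), although its adjusted p became 0.156 and 0.154 when sgNT replicate 2 or crNT replicate 1 was dropped. Among RNAs without a poly(A) tail, SNORD3A, the U3 small nucleolar RNA, fell from 1.89 and 4.31 to 0.665 and 0.836 CPM (-2.02 ± 0.43; edgeR adjusted p = 0.00257) and lost its call without sgNT replicate 2 or crNT replicate 1 (adjusted p = 0.19 and 0.0649). Called genes without any read in sgNT were OLFML3, at 0.409 and 0.885 CPM in crNT, and the pseudogene RPL10P6, at 0.358 and 0.590 CPM in crNT. In the sgNT libraries no read allows up to 0.154 and 0.172 CPM, before TMM scaling. Both calls (edgeR adjusted p = 0.0155 and 0.0388) were lost when any 1 of the 4 non-targeting libraries was left out, with adjusted p from 0.054 to 0.204 for OLFML3 and from 0.111 to 0.278 for RPL10P6.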

How the data were processed

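Polyadenylated RNA was sequenced in 8 libraries (4 groups of 2). The deposited tables hold the authors' raw counts of reads per gene, from STAR on hg38 per the submitters' processing notes, with the version and annotation not given in the sources used here. Per the file layout, each table holds 1 unstranded and 2 stranded columns of counts. The 2 stranded columns had similar totals in each library (11375463 and 11075148 in sgNT replicate 1). They serve as alternatives with fewer reads and do not separate overlapping genes by strand. The unstranded column was used, and its 4 totals without a gene were left out (for example, unmapped reads were 8.32% to 14.4%).

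Of 60652 genes, 16606 passed edgeR's filterByExpr by group. edgeR 4.0.16 (R 4.3.3) with TMM scaling and a robust quasi-likelihood test was fitted once to all 8 libraries with a mean per group (4 residual degrees of freedom), two-sided, with Benjamini-Hochberg adjusted p under 0.05 over all genes tested. All adjusted p-values in the text are edgeR's unless DESeq2 (1.42.0) is named. The contrasts were crNT minus sgNT, crTet minus sgTet, and the difference of both. CPM are reads per 1000000 gene reads, with each library's total multiplied by its TMM factor. Values after ± are standard errors. Counting alone sets a floor of 3 reads, or 0.142 to 0.172 CPM before TMM scaling.

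Named genes were the 12 largest rises and 12 largest falls with a mean log2 CPM of at least 1 and no overlap between groups, called genes without a read in 1 group (up to 4 each way), up to 4 called members of each of 45 gene lists by adjusted p, and EGFP, RELA, GAPDH and ACTB. Other list members are given as examples, and some members of these lists are not reported here. The comparison and the lists were chosen with earlier results of these data known. Gene positions come from GENCODE for hg38, matched by gene ID. Code was tested on simulated counts. A total of 19 alternatives was run. Correlations of deviations between same-numbered libraries ran from -0.119 to 0.243, the highest between crTet and sgTet. No label says whether the numbers pair the samples. They were fitted as unpaired, with the replicate block as an alternative.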

Additional observations from a re-analysis of the deposited data

Results flagged for a closer look

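The effector difference depended on the guide for 224 genes, by edgeR's test of the difference between the crNT to sgNT and the crTet to sgTet contrasts. Each value here is that difference on the log2 scale, and a positive value means that dCas12a-VPR stood relatively higher with the non-targeting guides. Positive values were found for RSAD2 (0.93), IFIT3 (0.49) and IARS1 (0.39), an isoleucyl-tRNA synthetase gene.

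Negative values were found for SNORD3A (-2.38), HOXA7 (-1.90), IRS4-AS1 (-1.84), AMH (-1.69), FZD10 (-1.09) and the pseudogenes GTF2IP13 (-1.68) and PLEKHM1P1 (-1.30), whose reads can be shared with near-identical copies. HOXA5 (-0.62) and HOXB9 (-0.38) followed from the HOX clusters. Among early response genes they were found for JUN (-1.35), DUSP1 (-1.25) and IER2 (-0.65). The nucleolar and RNA-binding genes TCOF1 (-0.75), MYBBP1A (-0.49) and HNRNPA2B1 (-0.39) were also among them, as were RPL30 (-0.66), MYH9 (-0.58), UHRF1 (-0.51), FASN (-0.42) and the lamin gene LMNB2 (-0.41). RPL30, HOXB9 and LMNB2 passed only narrowly (edgeR adjusted p = 0.0498, 0.0478 and 0.0468). The RPL30 call between crNT and sgNT was lost with forward-strand and reverse-strand counts (edgeR adjusted p = 0.83 and 0.528). The total of 224 fell to 28 without sgNT replicate 2 and to 30 without crNT replicate 1.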

How the results depend on the processing

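With 2 libraries a group, the number of calls was the least stable quantity. When single libraries were left out it ran from 333 to 2143 between crNT and sgNT, from 331 to 2150 between crTet and sgTet, and from 28 to 1835 for the dependence on the guide; a lone remaining library was assumed to vary like the other groups. Fitting only the 4 non-targeting libraries gave 2968 calls between crNT and sgNT, and 2867 with the replicate block. With forward-strand counts, which hold fewer reads, there were 444 calls between crTet and sgTet and 106 for the dependence on the guide. Removing length and GC trends gave 1230 calls between crTet and sgTet, and testing without a filter gave 450 for the dependence on the guide. In all these count changes the cause was not tested. With the replicate block as a term in the fit of all 8 libraries, 1453 genes were called between crNT and sgNT, 894 between crTet and sgTet and 400 for the dependence on the guide. DESeq2 called 1127 genes between crNT and sgNT. Of 125 named genes that were called, 65 kept the call in all 19 alternatives, and leaving out sgNT replicate 2 ended the call for 54. Direction reversed for GAPDH with reverse-strand counts (-0.0094) and for RELA, which ran from -0.10 to 0.017 over left-out libraries, and neither gene passed the threshold. The median of the Notch pathway list ran from -0.086 to 0.018 over left-out libraries and was 0.069 with length and GC trends removed. Differences under about 3 reads are below what these counts can show.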
